A study of Homo sapiens with 8 samples.

Results

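The major histocompatibility complex (MHC) region of chromosome 6 was examined for open chromatin in the osteosarcoma line U2OS, a human cell line derived from bone tumour. Peaks of 8 lists that overlapped by at least 1 bp were merged into 52105 regions, and the 318 regions between 28500000 and 34000000 (GRCh38) are described here, whether found in 1 list or in several. The lists came from FAIRE-seq, which sequences the DNA that stays free of protein after formaldehyde crosslinking, so that a peak marks an open site. The study asked how ZBTB48, a zinc finger protein, affects chromatin of CIITA, the transactivator of MHC class II genes. WT_untreated and WT_IFNγ were clones WT_4 (replicate 1) and WT_5 (replicate 2), and KO_untreated and KO_IFNγ were clones KO_C5 (replicate 1) and KO_D2 (replicate 2), which carry a knockout of ZBTB48. Each line was a single clone and gave 1 untreated library and 1 library after 250 U/ml interferon gamma (IFNγ), so the libraries of a clone are paired. Per the labels the treatment lasted 24 h, but a longer time appears in places in the study, so the duration is uncertain. Peak lists cannot check the loss of ZBTB48. Of the lists of cell type markers, the lymphoid genes PTPRC, CD79A and CD3E had no peak at their canonical start. Of the 4 osteoblast lineage genes COL1A1 had one in 5 libraries, whereas RUNX2 and SP7 had peaks in 8 libraries only at other annotated starts and TWIST1 in 1. EPCAM, an epithelial gene, had a canonical peak in 3 libraries and CDH1 in none.

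The MHC region holds genes of antigen presentation among many genes that every cell uses. Class I molecules (such as HLA-B and HLA-C) present peptides from inside the cell to T cells, and the loading genes make, carry and fit those peptides: PSMB8 and PSMB9 are subunits of the immunoproteasome, TAP1 and TAP2 form the peptide transporter, and TAPBP (tapasin) bridges it to class I molecules. Class II molecules (HLA-DR, HLA-DQ, HLA-DP) present peptides taken up from outside, mostly on immune cells, and other cell types can express them after IFNγ through CIITA. The class III segment between them holds complement and cytokine genes and many housekeeping genes. Genes that respond to IFNγ often carry GAS elements, or ISRE-type elements that interferon regulatory factors (IRF) bind.

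The sequences under the sites that the results turn on are shown first. Each is the plus strand of GRCh38 within 150 bp of the strongest summit, with gene promoters shortened to the stretch before the canonical transcription start sites (TSS), so HLA-C, TAP2 and NELFE read outwards from their starts, and the stretch of TAP1 and PSMB9 ends at the PSMB9 start. The promoters of HLA-C and HLA-F are shown as variable sites, TAP2 and TAP1 as constant loading promoters, NELFE as the constant housekeeping promoter that ranked highest, and the last as 1 of the IFNγ-gained sites seen after IFNγ in all 4 clones. Capitals mark matches, on either strand, to the IRF element (GAAA, any 2 bases and GAAA), the CCAAT box CCAAT, the ETS motif CCGGAAG or a core of the CTCF motif (CCA, any 2 bases, AG, any 2 bases and GGC). Matches of different motifs do not overlap in these stretches, and the other motifs searched (GAS, AP-1 and TTAGGG) had no match in them.
HLA-C promoter (chr6:31272093-31272298): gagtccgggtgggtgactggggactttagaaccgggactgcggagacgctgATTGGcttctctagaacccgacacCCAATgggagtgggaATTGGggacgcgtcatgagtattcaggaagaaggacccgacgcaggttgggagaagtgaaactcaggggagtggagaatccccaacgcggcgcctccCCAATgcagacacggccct
HLA-F promoter (chr6:29723165-29723433): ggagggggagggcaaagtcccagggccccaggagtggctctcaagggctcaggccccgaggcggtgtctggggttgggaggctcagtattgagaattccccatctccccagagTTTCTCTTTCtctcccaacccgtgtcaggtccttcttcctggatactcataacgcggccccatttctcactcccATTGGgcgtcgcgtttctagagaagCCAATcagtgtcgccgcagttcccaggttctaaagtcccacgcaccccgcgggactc
TAP2 promoter (chr6:32838740-32838955): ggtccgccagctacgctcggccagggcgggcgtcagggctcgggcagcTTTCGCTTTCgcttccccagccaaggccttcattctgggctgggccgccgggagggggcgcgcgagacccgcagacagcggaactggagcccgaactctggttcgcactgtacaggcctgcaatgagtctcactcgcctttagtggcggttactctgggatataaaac
TAP1 and PSMB9 promoter (chr6:32853974-32854191): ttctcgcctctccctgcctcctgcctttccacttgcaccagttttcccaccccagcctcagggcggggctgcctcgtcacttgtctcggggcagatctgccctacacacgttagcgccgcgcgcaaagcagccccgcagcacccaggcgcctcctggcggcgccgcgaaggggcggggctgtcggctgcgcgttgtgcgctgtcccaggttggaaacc
NELFE and SKIC2 promoter (chr6:31958972-31959174): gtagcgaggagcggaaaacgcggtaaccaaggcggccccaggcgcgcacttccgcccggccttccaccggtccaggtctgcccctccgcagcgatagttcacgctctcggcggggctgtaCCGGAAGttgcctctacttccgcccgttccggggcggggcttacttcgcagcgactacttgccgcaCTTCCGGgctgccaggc
Intergenic site near NOTCH4 (chr6:32244990-32245289): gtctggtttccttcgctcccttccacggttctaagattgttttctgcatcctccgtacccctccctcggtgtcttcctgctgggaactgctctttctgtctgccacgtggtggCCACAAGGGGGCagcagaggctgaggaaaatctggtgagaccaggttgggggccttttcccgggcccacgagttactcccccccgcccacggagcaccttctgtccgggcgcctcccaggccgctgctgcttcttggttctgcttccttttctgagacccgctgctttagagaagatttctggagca

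The HLA-C promoter held 4 CCAAT boxes and that of HLA-F 2, and HLA-F and TAP2 an IRF element on the minus strand. Only the exact patterns given were searched, so a stretch without a match can still hold another form of an element. A second HLA-C site, listed in 1 library (31271384 to 31271598), held the IRF element. The TAP1 and PSMB9 stretch held none of the motifs searched. It begins at 32853974, whereas the canonical TAP1 start is at 32853704, so the part next to TAP1 was not searched. NELFE held 2 ETS motifs. Among all 52105 regions, windows of 300 bp at the summit held the IRF element in 4.13%, a GAS (TTC, any 3 bases and GAA) in 6.84%, a CCAAT box in 25.8%, the ETS motif in 7.55%, an AP-1 motif (TGANTCA) in 19.7%, TTAGGG, the hexamer of telomeres that ZBTB48 binds, in 6.86%, and the CTCF core in 6.32%. Among the 318 MHC sites the IRF element was in 29 (9.12%), a GAS in 17 (5.35%), a CCAAT box in 97 (30.5%), the ETS motif in 25 (7.86%), an AP-1 motif in 49 (15.4%), TTAGGG in 27 (8.49%) and the CTCF core in 19 (5.97%). These shares are descriptions without a test. Of the 74 MHC sites open in all 8 lists, 5 (6.76%) held the IRF element, against 2.07% of all regions open in all 8 lists.

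Open sites were spread unevenly over the segments. The extended class I segment (28500000 to 29672372) held 68 sites, or 58.0 per Mb, and the class I segment, up to 31511124, held 107 or 58.2 per Mb. The class III segment, up to 32439877, was densest with 69 sites or 74.3 per Mb, and it also held the most protein-coding genes, 69. The class II segment, from HLA-DRA to HLA-DPB1 (32439878 to 33089696), was sparsest with 17 sites or 26.2 per Mb, and the extended class II segment held 57 or 62.6 per Mb. Promoters, taken as 500 bp either side of any annotated TSS, made up 16 of the 68 sites in the extended class I segment (23.5%), 51.4% in class I, 65.2% in class III, 64.7% in class II and 50.9% in extended class II. In the extended class I segment 41 sites were intergenic, and in class III 4. Of 189 protein-coding genes in the window, 61 had a peak at their canonical start in all 8 libraries and 80 in none. Those with a peak in all 8 made up 8.33% in extended class I, 44.9% in class I and 29.0% in class III. In class II they made up 25% and in extended class II 44.4%. The share over all protein-coding genes of the genome was not computed, so whether the window differs from it cannot be told.

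Most constant sites were promoters, while the median intergenic site was seen in 1 list. In all, 156 of 318 sites (49.1%) were promoters, against 38.7% of all regions, 34 lay in exons, 45 in introns and 83 (26.1%) were intergenic. A median promoter site was 640.5 bp long and present in 6 lists, and a median intergenic site was 316 bp long. Of the 74 constant sites, with a peak in all 8 lists, 65 (87.8%) were promoters, close to 87.3% over all constant regions. Of the 111 sites in 1 library, 29 (26.1%) were promoters. Constant sites made up 23.3% of MHC sites and 22.2% of all regions, and sites in 1 library 34.9% and 38.9%. By segment, constant sites numbered 5 of 68 in extended class I (7.35%), 27 of 107 in class I, 21 of 69 in class III, 6 of 17 in class II and 15 of 57 in extended class II.

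The libraries differed widely in how many MHC sites they listed, with WT_5 at the top in either condition. In the order WT_4, WT_5, KO_C5 and KO_D2, the untreated libraries listed 114, 220, 95 and 111 sites, and the IFNγ libraries 109, 252, 171 and 174. Both WT_5 libraries were the highest and both WT_4 libraries were among the 4 lowest, so the groups overlapped. The whole lists followed a like order, with 16730 to 37533 peaks, and per 1000 regions of its list a library held 5.10 to 7.73 MHC sites. Sites found in 1 library came mostly from WT_5, 56 from its IFNγ and 24 from its untreated library, against 1 to 13 from each other library. The 56 were 17.6% of MHC sites, where 14.7% of all regions had the same pattern, and the 24 were 7.55%, against 5.24%. Promoters took 55.6% and 58.2% of sites in the WT_5 libraries, 64.9% and 66.1% in the KO_IFNγ libraries and 76.3% to 80.7% in the other 4. A peak needed at least 5 or 6 fragments at its summit, at a lowest local background of 0.621 to 1.08 fragments, so weaker open sites were not detectable at this depth.

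**Figure D1:**
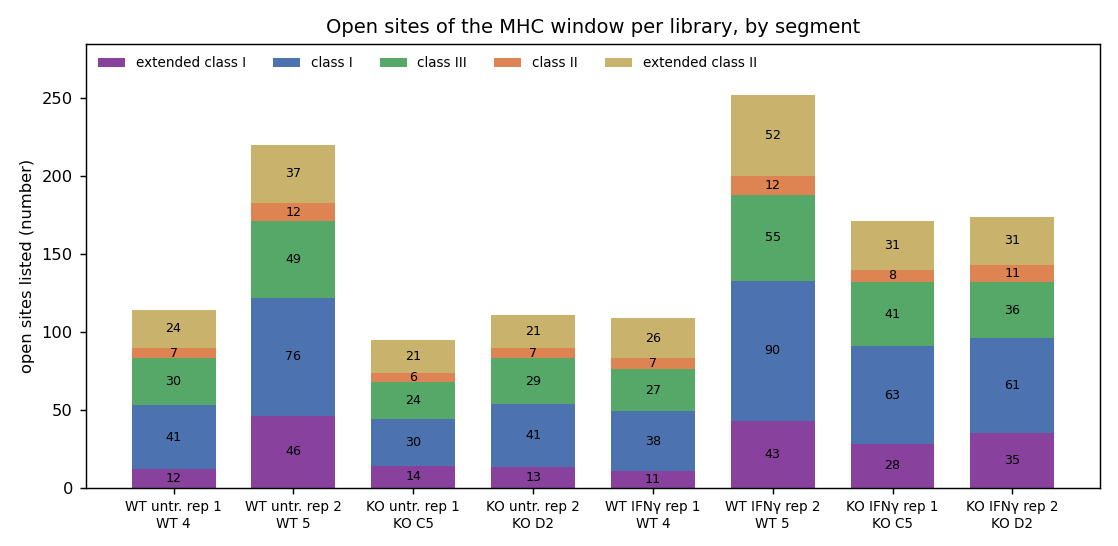
Number of open MHC sites listed in each of the 8 libraries (x axis, group, replicate and clone), stacked by segment. The bars of the WT_5 libraries reach 220 and 252 sites and those of the other libraries 95 to 174, and class II is the thinnest layer with 6 to 12 sites.

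The split of the WT clones had no counterpart in the other direction. A peak in both WT_5 libraries and in no WT_4 library was found at 73 MHC sites (23.0%; 14.8% of all regions), and the opposite at 0 (0.856% of all regions). Of the 73 sites, 32 were promoters, 36 also had peaks in both KO_IFNγ libraries and 5 in both KO_untreated libraries. For these counts no share over all regions was computed. A peak in both WT_5 and both KO_IFNγ libraries and in no other was found at 19 MHC sites (5.97%), against 3.59% of all regions. Base composition moved with the split of the WT clones. The median G+C of the 300-bp window at MHC summits was 60.2% and 60.3% in the WT_5 libraries, 61.3% and 61.5% in the KO_IFNγ libraries, and 63.0% to 64.7% in the other 4. At the 73 sites it was 56.3%, the same as over all regions with a peak in both WT_5 libraries and in no WT_4 library.

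The constant sites, which every library listed, showed the same shift in signal. Fragments at the summit were solved from the deposited fold enrichment and −log10 p and divided by the library's median over all constant regions. Between untreated WT_5 and WT_4 the log2 ratio of these values correlated with G+C over the 74 sites (Pearson r = -0.67, and -0.54 over all 11551 constant regions; a description across sites that share libraries). Its median was 0.83 at the 35 sites below 65.7% G+C and -0.18 at the other 39. Between the IFNγ and untreated libraries of a clone, r was -0.51 in WT_4, 0.18 in WT_5, -0.59 in KO_C5 and -0.70 in KO_D2. In KO_C5 the medians were 0.64 below and -0.18 above that G+C. The part of base composition in the differences between libraries was not tested.

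**Figure D2:**
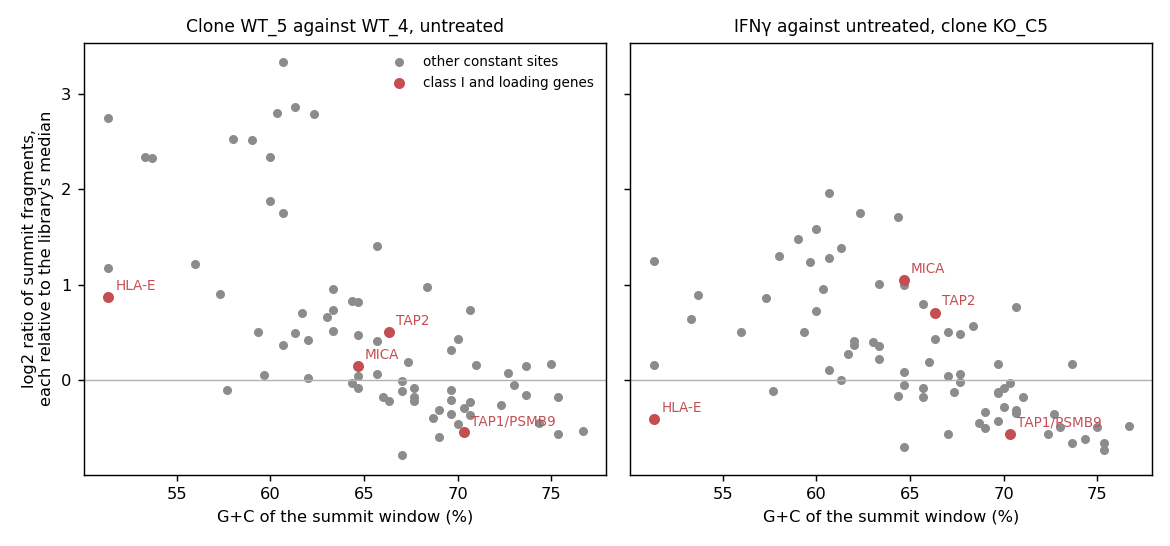
Log2 ratio of summit fragments (y axis, each library relative to its median over constant regions) against the G+C content of the 300-bp summit window (x axis, percent) at the 74 constant MHC sites, for WT_5 against WT_4 untreated (left) and IFNγ against untreated in KO_C5 (right). In both panels sites of low G+C mostly lie higher, and the class I and loading genes (red) mostly lie within the cloud of other sites. HLA-E, at 51.3% G+C, is an exception in the right panel. It lies at -0.41, below other sites of like G+C such as HCG20 at 0.16.

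Promoters of listed housekeeping genes made up 30 of the 74 constant sites. Of the 45 genes, 34 had a peak at their canonical start in all 8 libraries and the other 11 in some. Summit fragments are given as solved, unscaled for depth, and their median over all constant regions was 73, 72, 64 and 53 untreated and 46, 86, 93 and 73 after IFNγ. NELFE, a subunit of the negative elongation factor, and SKIC2, an RNA helicase of the SKI complex, share a promoter (31958795 to 31959339) that had 197, 242, 178 and 171 summit fragments untreated and 120, 231, 237 and 208 after IFNγ. KIFC1, a mitotic kinesin, had 180, 238, 128 and 165 untreated and 101, 257, 239 and 217 after IFNγ. These values are in the clone order WT_4, WT_5, KO_C5 and KO_D2, as are all that follow. In both promoters the lowest value was that of WT_4 after IFNγ. TUBB, a beta tubulin, ranged from 104 to 217 fragments, ABCF1, a translation factor, from 123 to 206, PHF1, a Polycomb-associated protein, from 94 to 189, and the promoter of MSH5, a meiotic mismatch repair homologue that an alternative start of CLIC1 shares, from 92 to 267. With CLIC1, a chloride channel protein, these are the 8 housekeeping genes of highest rank, CLIC1 only through that shared site, since its own canonical start had 11 to 56 fragments in 6 libraries.

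Not all housekeeping promoters were steady. PPP1R10, a phosphatase regulator, and MRPS18B, a mitochondrial ribosomal protein, share a site with 25, 171, 60 and 72 fragments untreated and 22, 191, 169 and 185 after IFNγ. NEU1, a lysosomal sialidase, had 29, 198, 44 and 107 untreated and 57, 226, 215 and 226 after IFNγ. In both, WT_4 was low in either condition and both KO clones were higher after IFNγ than before. DDX39B, an RNA helicase of mRNA export, had no listed peak in either WT_4 library and 20 to 96 fragments in the other 6. WDR46 and PFDN6, a nucleolar protein and a prefoldin subunit with a common promoter, had 17 and 12 fragments in the WT_5 libraries alone. By library, 38 to 40 of the 45 genes had a peak in KO_untreated and WT_4 libraries, 43 in both KO_IFNγ libraries and 45 in both WT_5 libraries.

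**Figure D3:**
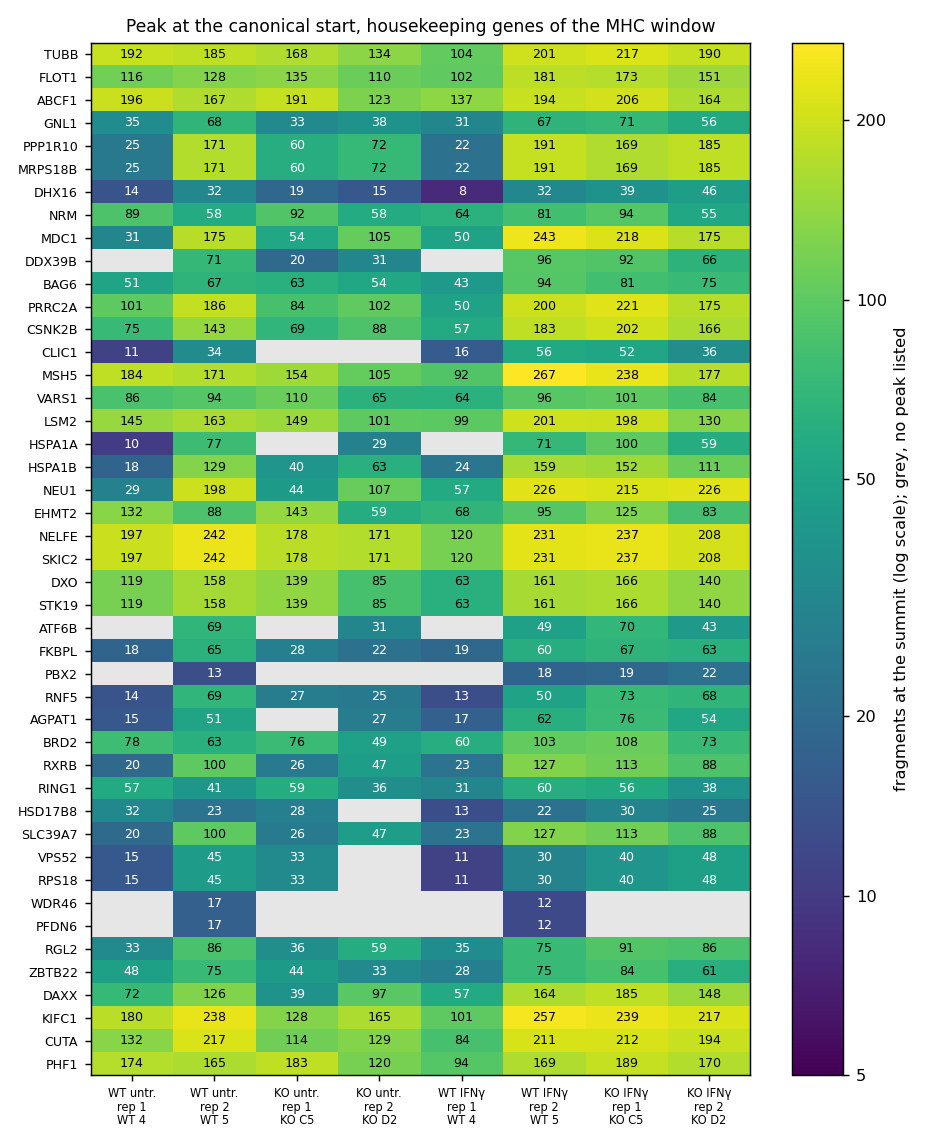
Fragments at the summit of the peak within 500 bp of the canonical start (colour, log scale, and number in the cell) for 45 housekeeping genes (rows) in 8 libraries (columns); grey marks no listed peak. Of the rows, 34 are filled in all 8 columns, and the gaps lie mostly in the WT_4 and KO_untreated columns.

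The class I genes were open less often and more weakly. At canonical starts HLA-E and MICA had peaks in all 8 libraries, HLA-F in 7, HLA-C in 5, HLA-B and HLA-G in 1 and MICB in none. MICA, a stress-induced ligand of the NKG2D receptor, had 64, 70, 30 and 43 fragments untreated and 35, 88, 90 and 73 after IFNγ. HLA-E, which presents leader peptides to NK cell receptors, had 15, 27, 44 and 13 untreated and 29, 62, 48 and 67 after IFNγ. These unscaled values were higher after IFNγ in each clone, although the ranges of the conditions overlapped. HLA-F, a nonclassical class I gene, had 10, 25, none and 15 untreated and 9, 35, 34 and 26 after IFNγ. Reads that near-identical HLA copies share can fall to the mapping quality filter, so missing HLA peaks are uncertain.

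Open sites at HLA-C and HLA-B were listed in WT_5 and, after IFNγ, in both KO clones. At HLA-C a site was also listed in untreated KO_D2. HLA-C had no listed peak in either WT_4 library or in untreated KO_C5, 37 and 14 fragments in untreated WT_5 and KO_D2, and 55, 39 and 39 in WT_5, KO_C5 and KO_D2 after IFNγ. Thus KO_C5 gained the peak with IFNγ, WT_5 and KO_D2 had it before and after, and WT_4 had it in neither condition. At HLA-B a peak with 16 fragments was listed near the canonical start in KO_D2 after IFNγ. A stronger site at an alternative annotated start (31366815 to 31367239), which lies 9636 bp from the canonical one, had 42 fragments in untreated WT_5 and 68, 50 and 33 in WT_5, KO_C5 and KO_D2 after IFNγ. HLA-G, a class I gene of the placenta, had 9 fragments in KO_D2 after IFNγ alone.

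Of the 5 peptide loading genes, TAP1, PSMB9 and TAP2 had a canonical peak in all 8 libraries, and PSMB8 and TAPBP in 4 each. TAP1 and PSMB9 share a promoter (32853092 to 32854603) with 126, 85, 101 and 65 fragments untreated and 55, 93, 99 and 71 after IFNγ. TAP2 had 60, 84, 54 and 56 untreated and 72, 128, 128 and 91 after IFNγ, higher in every clone. Only 1 value after IFNγ, that of WT_4, lay within the untreated range. PSMB8 had canonical peaks with 52 fragments in untreated WT_5 and 71, 70 and 35 in WT_5, KO_C5 and KO_D2 after IFNγ. Within 500 bp of any annotated start it also had 8, 11 and 18 fragments in untreated WT_4, untreated KO_D2 and WT_4 after IFNγ. TAPBP had 9 fragments in untreated WT_5 and 5, 17 and 31 in WT_4, WT_5 and KO_D2 after IFNγ. In mean percentile of −log10 p over all 8 lists, where an absent peak counts as 0, TAP1 stood at 80.7, TAP2 at 77.7, MICA at 69.6, HLA-E at 53.6, HLA-C at 34.8, PSMB8 at 33.6, HLA-F at 28.3, TAPBP at 10.95 and HLA-B at 3.60, against 97.3 for NELFE.

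The class II genes had few peaks. Of 13 genes, 11 had no peak at their canonical start in any library. Among them were HLA-DRA, HLA-DRB1, HLA-DRB5, HLA-DQA1, HLA-DQB1 and HLA-DPB1, which encode chains of the classical molecules. HLA-DPA1 had 12 and 13 fragments in untreated and IFNγ-treated WT_5. HLA-DMA, which edits class II peptides, had 9 fragments in WT_5 after IFNγ. Counting any annotated start, every library listed a peak for HLA-DMA, but these peaks lay at sites 15119 and 16187 bp from its canonical start, at the promoter of BRD2, a bromodomain protein. The BRD2 peak at its canonical start had 78, 63, 76 and 49 fragments untreated and 60, 103, 108 and 73 after IFNγ. A second site at an alternative BRD2 start (32971432 to 32973144) had 66 to 198. The constant promoters that ranked highest in the class II segment were thus those of BRD2, of TAP1 and PSMB9, and of TAP2.

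Immune genes of class III were mostly without peaks as well. TNF, LTA and LTB, which encode cytokines of the TNF family, and LST1, NCR3, AIF1, C2, C4A, C4B and MCCD1 had none at their canonical starts. C2, a complement component, had peaks in all 8 libraries at annotated starts 25128 and 29820 bp away from the canonical one, beside EHMT2. C4A and C4B are near-identical copies, so their lack of peaks is uncertain. CFB, complement factor B, had 11 fragments in untreated WT_5 and 23, 13 and 20 in WT_5, KO_C5 and KO_D2 after IFNγ. NFKBIL1 had no listed peak in WT_4, 56, 17 and 20 fragments untreated in WT_5, KO_C5 and KO_D2, and 78, 87 and 72 after IFNγ. Of the zinc finger and TRIM genes, 9 of 11 lay in the window. TRIM27, TRIM26 and TRIM39, which encode ubiquitin ligases, were open in all 8 libraries, ZNF311 in 3, and TRIM31, TRIM10, TRIM15, TRIM40 and ZFP57 in none. TRIM27 had 69 to 130 fragments and TRIM26 64 to 220.

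**Figure D4:**
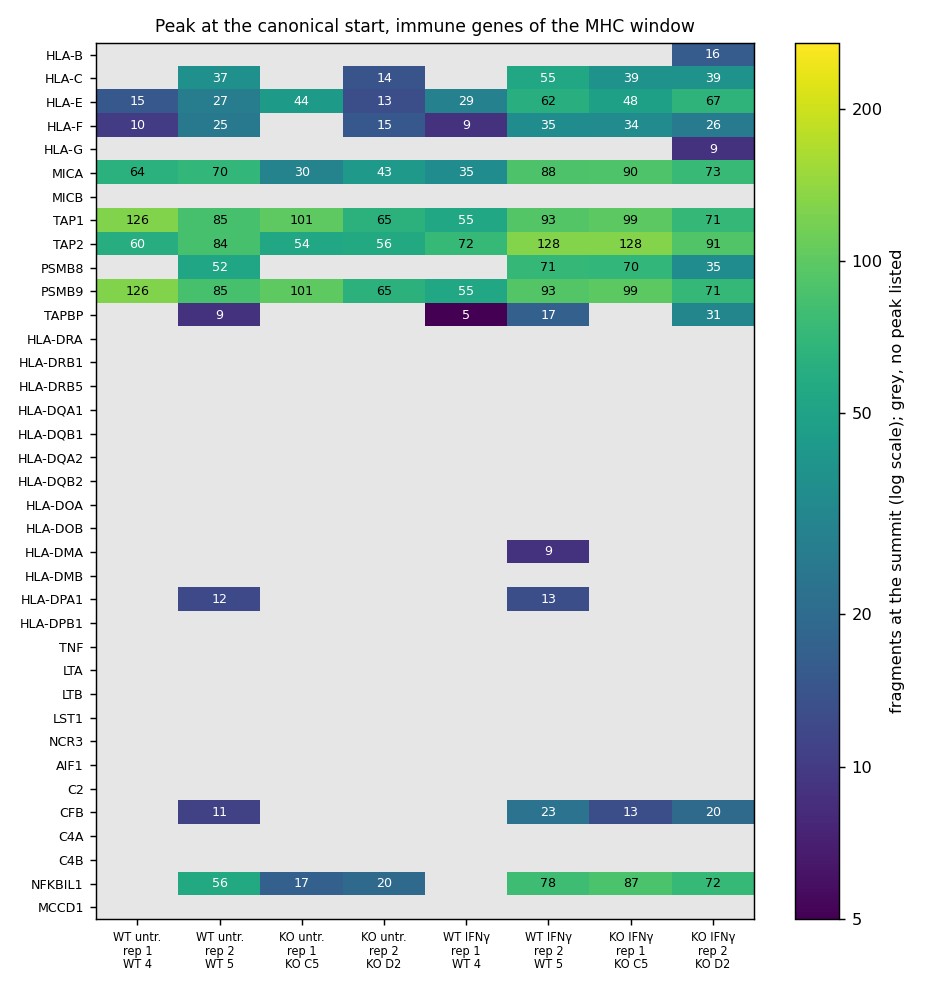
Fragments at the summit of the peak within 500 bp of the canonical start (colour, log scale, and number in the cell) for class I, loading, class II and class III immune genes (rows, in that order) in 8 libraries (columns); grey marks no listed peak. HLA-E, MICA, TAP1, TAP2 and PSMB9 are filled across, whereas 11 of 13 class II rows are empty.

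The strongest sites of the window and the constant intergenic sites were next examined. The highest-ranked site (32195407 to 32196789) overlapped alternative starts of GPSM3, a regulator of G protein signalling, and NOTCH4, a Notch receptor, and had 241, 191, 223 and 145 fragments untreated and 125, 231, 257 and 190 after IFNγ. The site shared by CCHCR1, a centrosomal protein, and TCF19 had 101 to 236, and UQCC2, an assembly factor of respiratory complex III, had 99 to 191. In the extended class I segment GABBR1, a GABA-B receptor subunit, had 51 to 107 and the start of the non-coding gene ENSG00000225173 (28838815 to 28839286) 29 to 76. The 5 constant intergenic sites were weaker, from 13 to 82 fragments. The one 3060 bp from the start of TRIM31 (30101963 to 30102380) had 70, 50, 60 and 26 untreated and 38, 77, 82 and 33 after IFNγ. The others lay 5511 bp from COL11A2 with 29 to 60, 577 bp from TRIM26 with 25 to 49, 40544 bp from TRIM27 with 24 to 47, and 45145 bp from HLA-E with 13 to 39.

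The effect of IFNγ on the number of open sites was then tested. IFNγ libraries listed 176.5 ± 58.6 MHC sites and untreated libraries 135 ± 57.3 (SD, n = 4 each), a difference of 41.5 that was smaller than either spread (two-sided exact permutation p = 0.343, adjusted p = 0.857 over 6 tests, smallest possible p 0.0286). Per 1000 regions of the list the values were 6.67 ± 0.559 and 6.28 ± 1.26 (SD, n = 4; p = 0.571 by the exact permutation test, 0.857 adjusted). The promoter share was 66.8% ± 10.4 after IFNγ and 72.7% ± 9.76 untreated (SD, n = 4; p = 0.429 by the exact permutation test, 0.857 adjusted). In the class II segment IFNγ libraries listed 7, 12, 8 and 11 sites and untreated libraries 7, 12, 6 and 7, or 9.5 ± 2.38 and 8.0 ± 2.71 (SD, n = 4; p = 0.514 by the exact permutation test, 0.857 adjusted). Site numbers did not differ beyond the spread between libraries in these 4 tests. Libraries of a group differ in clone, so these p-values measure the spread between clones and libraries together.

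Within clones, 3 had more sites after IFNγ than before and WT_4 had fewer. WT_4 gained 16 MHC sites with IFNγ (5.03%; 6.1% of all regions) and lost 21 (6.60%; 12.2%). WT_5 gained 66 (20.8%; 23.3%) and lost 34 (10.7%; 7.88%). KO_C5 gained 80 (25.2%; 21.1%) and lost 4 (1.26%; 6.15%), and KO_D2 gained 66 (20.8%; 16.9%) and lost 3 (0.943%; 1.9%). The MHC shares thus ran from just below the background for gains in WT_4 and WT_5 to just above it in the KO clones. Of the sites gained, 7 in WT_4, 19 in WT_5, 39 in KO_C5 and 27 in KO_D2 were promoters. Gained sites were weaker than sites present before and after, with medians of 11 fragments in WT_4, 9.5 in WT_5, 30 in KO_C5 and 20 in KO_D2, while the sites present before and after had 35, 43.5, 90 and 66. Absence from the untreated list defines a gained site, which favours weak sites, so this comparison measures no effect of IFNγ.

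Few sites were gained across clones. A gain in at least 3 of 4 clones with a loss in none was seen at 5 MHC sites (1.57%), near the background of 1.92% of all regions, and the opposite at 0 (0.0864% of all regions). An intergenic site 20864 bp from the start of NOTCH4 (32244931 to 32245311), whose sequence is printed above with its CTCF core, had no listed peak in untreated WT_4, KO_C5 and KO_D2, 28 fragments in untreated WT_5, and 12, 43, 42 and 37 after IFNγ. It was open after IFNγ in all 4 clones and before IFNγ only in WT_5. A site in an exon 5344 bp from the start of BAK1, a pro-apoptotic gene (33585637 to 33586017), had 26, 40 and 29 fragments in WT_5, KO_C5 and KO_D2 after IFNγ. In the same 3 libraries an alternative start of GABBR1 (29627866 to 29628468) had 18, 22 and 18, and an intronic site 703 bp from the MICA start (31401452 to 31401708) had 12, 13 and 16. These 3 sites had no listed peak in any untreated library or in WT_4. An intergenic site 27547 bp from TRIM27 (28951535 to 28952058) had 14 fragments in untreated WT_5 and 8, 30, 16 and 15 after IFNγ. None of the 5 was at the canonical promoter of an HLA or loading gene, and none held the IRF element or a GAS, against 12.1% and 8.09% of all 1001 gained regions. The weakest of these values, 8 fragments, is close to the floor of 5 or 6. Without a library its clone is lost too, and a gain in the 3 clones left was seen at 3 sites without either WT_4 library, at 2 without either WT_5 library and at 0 without any KO library.

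Signal at the constant sites was compared on log2 fold enrichment, quantile normalised over the 11551 constant regions and fitted with limma. IFNγ gave 0 calls at adjusted p under 0.05 among the 74 MHC sites and in 0% of all constant regions, and 2 of 74 (2.70%, against 3.19% of all) had an unadjusted p under 0.05. These were TAP2, at 4.34, 4.96, 4.15 and 4.53 on the log2 scale untreated and 5.29, 5.45, 4.88 and 4.69 after IFNγ, and HLA-E, at 3.03, 3.65, 4.15 and 2.61 untreated and 4.29, 4.48, 3.82 and 4.59 after IFNγ. The log2 difference was 0.58 (SE 0.213) for TAP2 and 0.94 (SE 0.365) for HLA-E, and neither passed the limma test (Benjamini-Hochberg adjusted p = 0.968 each). On this scale TAP2 was higher in each of 4 clones, and HLA-E was higher in 3 and lower in KO_C5. TAP1 and PSMB9 stood at -0.34 (SE 0.186) and MICA at 0.28 (SE 0.232). The highest of the 74 estimates was at the promoter of PPP1R11, a regulator of protein phosphatase 1, at 1.30 (SE 0.599, limma adjusted p = 0.968), with 2.204, 5.00, 3.45 and 4.03 on the log2 scale untreated and 3.73, 5.29, 5.31 and 5.53 after IFNγ. The next was at NEU1, at 1.00 (SE 0.622, limma adjusted p = 0.968). Both were higher after IFNγ in all 4 clones, and neither passed the test. The median over the 74 sites was 0.16, with 53 sites (71.6%) above 0, against a median of -0.05 and 41.7% above 0 over all constant regions. Within clones, on summit fragments relative to the library's median, the 74 sites had medians of 0.21 in WT_4 and 0.007 in WT_5. Those in KO_C5 and KO_D2 were 0.13 and 0.11. Over all constant regions these medians were -0.01, -0.01, -0.26 and -0.03 in clone order. With median centring, or on summit fragments in place of fold enrichment, TAP2, HLA-E and MICA stayed above 0, TAP1 and PSMB9 below, and 67.6% and 68.9% of the 74 sites lay above 0. By segment the median was 0.10 in extended class I, 0.25 in class I, 0.07 in class III, 0.13 in class II and 0.15 in extended class II. MHC constant sites had a lower median G+C, 65.7% against 69.7% over all constant regions, and the part of this in the shift was not tested.

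**Figure D5:**
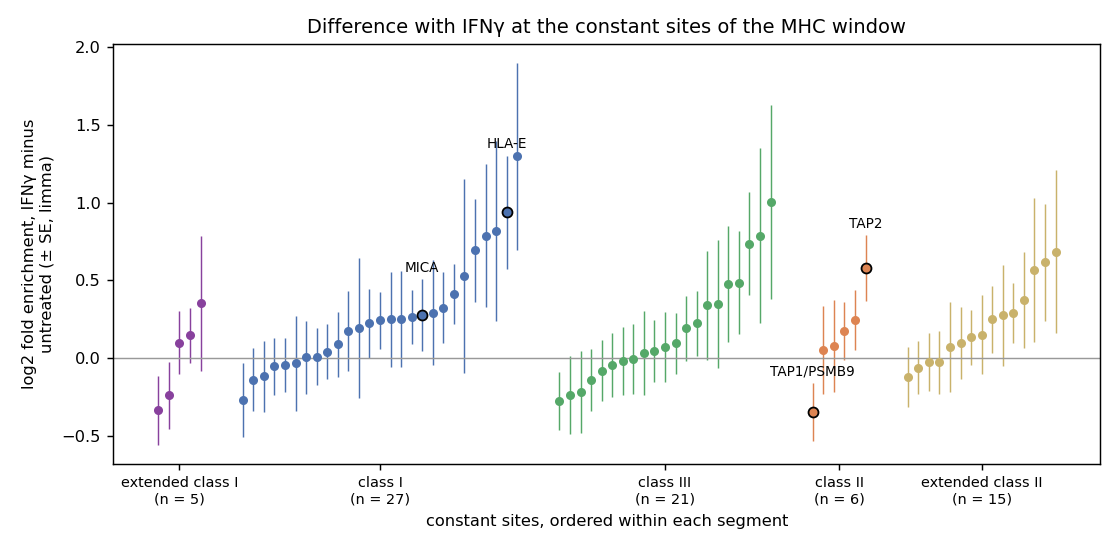
Log2 difference in fold enrichment between IFNγ and untreated libraries (y axis, limma estimate, bars ± SE, 4 libraries each) for the 74 constant MHC sites, ordered by size within each segment (x axis); black rings mark class I and loading genes. Most points lie above 0, from -0.34 at TAP1 and PSMB9 to 1.30 at PPP1R11, with TAP2 at 0.58 and HLA-E at 0.94, and no site passed the test after adjustment.

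ZBTB48 genotype was compared in the same ways. Clone means were 138 ± 6.72 MHC sites in KO and 174 ± 88.0 in WT (SD, n = 2 clones each), a difference of -36 that lay within the SD of the WT clones (exact permutation p = 1, the smallest possible being 0.333). Per 1000 regions the means were 6.45 ± 0.937 in KO and 6.50 ± 1.17 in WT (SD, n = 2 clones each; exact permutation p = 1). No MHC site had a peak in all 4 libraries of one genotype and none of the other, where 0.205% of all regions were WT-only and 0.0115% KO-only. The nearest to it was the promoter of ITPR3, a calcium channel of the endoplasmic reticulum (33620407 to 33621435), with 12 fragments in untreated WT_4 and 8 and 14 in WT_4 and WT_5 after IFNγ, and no listed peak in the other 5 libraries. At 2 clones a genotype no p below 0.333 can be reached, so a p of 1 does not show that genotypes are alike.

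At the constant MHC sites limma also called 0 sites for KO against WT untreated, after IFNγ or for the difference between the responses, and 0% of all constant regions in each. At an unadjusted p under 0.05 there were 5 of 74 untreated (6.76%, against 6.71% of all), 5 after IFNγ (6.76%, against 10.5%) and 1 for the interaction (1.35%, against 1.08%). The promoter of IER3, an immediate early response gene, stood at 4.12, 4.19, 2.55 and 3.26 on the normalised log2 scale untreated and at 3.50, 3.99, 4.04 and 3.90 after IFNγ. Both untreated KO values were below both untreated WT values, and the genotypes overlapped after IFNγ. Its log2 difference between KO and WT was -1.25 untreated (SE 0.320, limma adjusted p = 0.728) and 0.23 after IFNγ (SE 0.320), and the interaction was 1.47 (SE 0.452, limma adjusted p = 1.00). The start of ENSG00000225173 stood at 0.74 untreated and 1.36 after IFNγ in KO against WT (SE 0.284, limma adjusted p = 0.728 and 0.431). On the same scale its WT values were 4.39, 3.92, 3.81 and 4.08 and its KO values 4.75, 5.04, 5.19 and 5.42, which did not overlap. TUBB stood at -0.65 untreated and -0.59 after IFNγ in KO against WT (SE 0.241). On summit fragments in place of fold enrichment the difference turned to -0.06 at ENSG00000225173 untreated and to 0.13 at TUBB after IFNγ, and was 0.31 and -0.05 in the other condition, while IER3 untreated kept its sign at -0.78. TAP2 stood at -0.31 untreated and -0.58 after IFNγ (SE 0.301), and HLA-E at 0.04 and -0.18 (SE 0.516). None of these passed the adjusted test.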

How the data were processed

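FAIRE-seq was performed by the study in 8 libraries of U2OS clones. Per the labels and the study's methods, the authors trimmed reads with trimmomatic, aligned them to GRCh38 with bowtie2 2.2.5, dropped poorly mapped reads with samtools 1.14 and called peaks per library with MACS 2.2.7.1 in paired-end mode. The use of input DNA as control and the handling of duplicates are not given in the sources used here. The deposited lists precede the authors' step on reproducibility. The deposited fold enrichment is a ratio of summit fragments to local background, and MACS also gave the deposited −log10 p and −log10 q. The deposited score was not used.

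Under the Poisson model of MACS, the ratio and −log10 p of a peak together give its summit fragments (whole numbers within a relative tolerance of 0.001 for 100% of peaks). These stand in for sequencing depth, which the lists lack. Lists held 196601 peaks, of which 195897 lay on chromosomes 1 to 22 and X and were merged. Starts came from GENCODE 44. Counts per library were compared by exact permutation tests in Python and signal by limma 3.58.1 in R 4.3.3, both with Benjamini-Hochberg adjustment. Python 3.11.15, numpy 2.4.6, pandas 2.3.3 and, for the Poisson model, scipy 1.17.1 were used. The code was tested on simulated data. Where absence is given, no peak was listed, which is not a measured 0.

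Members, gene lists and tests were chosen with earlier results of these data known. Genes named were the class I, loading and class II genes with a peak (some listed items are not reported here), the 8 housekeeping genes of highest mean percentile of −log10 p, gained, lost and genotype-only sites, constant sites called by limma, the 3 highest constant sites of each segment and the 5 intergenic sites in most libraries. Other genes and sites were named after their values were seen, and so were the canonical start as a second reading of promoters and the CTCF motif. By the labels, untreated and IFNγ libraries pair within a clone, whereas a replicate number does not pair WT with KO. Alternatives are given in the closing section.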

Additional observations from a re-analysis of the deposited data

Results flagged for a closer look

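In 3 measures of the MHC window the WT_5 clone stood apart among the 4 untreated libraries, its gap to the nearest other library divided by the range of the 4 being above Dixon's critical value for 4 samples. The gap was 0.848 of the range for MHC sites (220 against 95 to 114), 0.873 for the promoter share of these sites (58.2% against 76.3% to 78.9%) and 0.833 for class II segment sites (12 against 6 or 7). Chance flags about 1 in 20 groups, and the 3 measures come from the same list.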

How the results depend on the processing

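Peaks were restricted to −log10 q from 3 or to fold enrichment from 4, promoters widened to 1000 bp, lists cut to the 16730 strongest peaks, peaks replaced by 150 bp either side of summits, clones used as a block and each replicate left out. For limma, median centring, summit fragments and regions in at least 6 lists were also tried. Apart from the omission of replicates, 55 values kept their direction and their side of the threshold, or lay within 1.5 times for a count, and 2 moved. With lists of equal length 2 of 163 MHC sites were IFNγ-gained, the one near NOTCH4 and the CLIC1 promoter, against 1.11% of all regions. In the same lists 2 of the 163 were genotype-only, against 0.146% of all regions. Both were WT-only and have 2 or 3 KO peaks in the full lists. The cause was not tested. With the clone as a replicate block the exact sign-flip p was 0.25 for MHC sites, 0.5 per 1000 regions, 0.375 for the promoter share and 0.5 for class II sites (smallest possible 0.125). With that block limma called 0 MHC sites in each contrast, so the block changed no limma call. Over all alternatives the p-values of the tests on libraries and clones ran from 0.114 to 1. Omitting each library in turn gave 16 to 69.8 for MHC sites with IFNγ minus untreated, 0.00271 to 0.878 per 1000 regions, -10.8 to -2.22 percentage points for the promoter share, 0.417 to 2.83 for class II sites and -55.5 to -17 for sites in KO minus WT. Because a clone is then lost, it gave 0 to 3 gained sites and 0 to 1 genotype-only sites. MHC sites per 1000 regions in KO minus WT ran from -0.400 to 0.296 and reversed to 0.160 without untreated WT_5, to 0.296 without untreated KO_C5, to 0.0445 without untreated KO_D2 and to 0.118 without WT_4 after IFNγ. With canonical starts in place of any start, the class II and class III immune genes with a promoter peak in all 8 lists fell from 1 each to 0. Near-identical genes and the floor of 5 or 6 fragments limit what absence means, and canonical starts were tried after seeing the data.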
